A study of Homo sapiens with 12 samples.

Results

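The 10 genes described here belong to the Hippo pathway: its effectors YAP1 and WWTR1, the kinases LATS1 and LATS2, the scaffold proteins AJUBA and AMOTL2, and the YAP target genes CCN1, CCN2, ANKRD1 and CRIM1. They were chosen by symbol, each matched a single row among the 58381 genes of the count table, and all 10 passed the filter that left 15836 genes for testing, ANKRD1 through its level in MDA-MB-231 alone. They were measured in Hs578T and MDA-MB-231, breast cancer cell lines with mesenchymal features, in 4 groups of 3 libraries each: Hs578T CD44 WT, Hs578T CD44 KO, MDA-MB-231 CD44 WT and MDA-MB-231 CD44 KO. CD44 is the main surface receptor for hyaluronan, a sugar polymer of the matrix around cells. Cells of all 4 groups carried a doxycycline-inducible Cas9 with puromycin resistance and had been starved in 1% serum for 24 h before RNA was extracted. The KO cells had received 2 guide RNAs, against exon 1 and exon 5 of CD44, and were sorted as live CD29+ cells without CD44 on the surface, whereas the WT cells had received transfection reagent without guides and were sorted as CD29+ and CD44+. The study describes the sorted KO cells as populations. The sources do not say if the triplicates stem from separate cultures, so the p-values measure the spread between these libraries. In RNA from whole populations, fewer cells with a transcript and less transcript per cell cannot be told apart.

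In the Hippo pathway, the kinases MST1 and MST2 activate LATS1 and LATS2, which phosphorylate YAP (the product of YAP1) and TAZ (the product of WWTR1) and thereby keep them out of the nucleus. When the kinases are inactive, for instance in spread cells under mechanical tension, YAP and TAZ enter the nucleus, bind the TEAD transcription factors and switch on genes such as CCN1, CCN2 and ANKRD1. LATS2 and AMOTL2 are targets of YAP as well as its inhibitors, which closes a negative feedback loop. Because YAP and TAZ are controlled largely through phosphorylation, the RNA level of YAP1 or WWTR1 is a measure of how much transcript is made and not of the activity of the protein.

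All positions are on GRCh38 as in the deposited table. YAP1 lies at chr11:102110461-102233423 on the plus strand, CCN1 at chr1:85580761-85583962 on the plus strand and CRIM1 at chr2:36355926-36551135 on the plus strand. On the minus strand lie WWTR1 at chr3:149517235-149736714, AMOTL2 at chr3:134355874-134375479, LATS1 at chr6:149658153-149718256, CCN2 at chr6:131948176-131951373, LATS2 at chr13:20973032-21061547, ANKRD1 at chr10:90912096-90921276 and AJUBA at chr14:22971174-22982642. YAP1, at chromosome 11, is the only gene of the 10 on the chromosome that carries CD44.

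The promoter stretches shown next hold the letters that TEAD factors prefer, GGAATG or its reverse complement CATTCC, in 3 of the 4 genes whose levels differed most between the lines. They come from the RefSeq promoter table for GRCh38.p14, were searched on both strands in the 250 bases before each listed RefSeq start, and have the motif in capitals. A listed start can lie inside the span of the gene given above. The AMOTL2 stretch and the second ANKRD1 stretch lie inside those spans. That table held 8 of the 10 genes, with CCN1 and CRIM1 not among them. The whole window of CCN2, chr6:131951373-131951622 on the minus strand, held 3 matches, and stretches of 30 bases are given for ANKRD1 (chr10:90921290-90921319 and chr10:90921198-90921227, minus strand) and AMOTL2 (chr3:134374499-134374528, minus strand).
CCN2: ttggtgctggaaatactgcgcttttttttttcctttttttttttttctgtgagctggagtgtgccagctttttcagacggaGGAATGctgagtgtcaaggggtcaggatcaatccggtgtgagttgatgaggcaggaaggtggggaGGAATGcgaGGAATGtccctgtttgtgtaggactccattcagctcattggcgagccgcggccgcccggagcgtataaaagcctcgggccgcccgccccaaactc
ANKRD1, first match: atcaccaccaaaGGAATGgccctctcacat
ANKRD1, second match: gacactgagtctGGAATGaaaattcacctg
AMOTL2: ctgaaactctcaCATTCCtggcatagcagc

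Among 35116 promoter windows in the table, 11.9% held the TEAD motif at least once and 0.94% at least 2 times. CCN2 with 3 matches and ANKRD1 with 2 belonged to the latter. YAP1 and AJUBA each held 1 match, the latter in 1 of its 2 listed windows, and AMOTL2 held its match in 1 of 2 windows. The windows of AJUBA and AMOTL2 with the match lie inside the gene spans given above. No match lay in the windows of WWTR1, LATS1 or LATS2. For AP-1, a factor that often binds beside TEAD, the loose pattern TGANTCA was searched, with any base at N. It can share its first letters TG with the end of a TEAD match. It occurred in 6.57% of windows and, among the 10 genes, in windows of ANKRD1 (as TGATTCA) and LATS1 (as TGAATCA). Both of these matches rest on the open middle base, which was T or A. A match is a description of these letters, not of a bound site.

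The libraries held 10257586 to 19725543 counts, which gave each gene but ANKRD1 in Hs578T at least 66 counts in every library. Levels are given as CPM, counts relative to library totals scaled with TMM factors. CD44 itself fell from 494 to 527 CPM in Hs578T CD44 WT to 24.9 to 28.6 CPM in KO, and from a range of 359.6 to 363 CPM to 30.0 to 40.3 CPM in MDA-MB-231. Of 5 mesenchymal markers, VIM stood at 3730 to 7262 CPM and was the only one called with loss of CD44, higher in both lines. CDH2 was below 1 CPM in MDA-MB-231, and so was SPARC in MDA-MB-231 CD44 WT. FN1 had a log2 fold change of 4.06 for Hs578T CD44 WT over MDA-MB-231 CD44 WT, and ZEB1 was not called between these groups. Of 5 epithelial markers, CDH1 and GRHL2 were below 1 CPM in every library and EPCAM was found in MDA-MB-231 at 13.7 to 22.2 CPM. With loss of CD44 in Hs578T, ESRP1 rose (0.97, adjusted p = 0.00492) and CLDN4 fell (-1.35, adjusted p = 0.000567), and no epithelial marker was called in MDA-MB-231. Of 6 immune markers, PTPRC rose in Hs578T CD44 KO (log2 fold change 3.33, adjusted p = 3.19e-05) and the other 5 stayed under 1 CPM in every library, so that the summed level of the list was 1.11 to 1.48 CPM in Hs578T CD44 WT and 4.07 to 5.37 CPM in KO, and 0.953 to 1.58 CPM in MDA-MB-231. Of 4 endothelial markers, KDR rose in both lines (in MDA-MB-231 the call was lost without CD44 WT replicate 1, adjusted p = 0.0341), VWF stayed under 1 CPM, and the sum went from a range of 11.9 to 14.3 to one of 16.5 to 17 CPM in Hs578T and from 6.17 to 9.71 to 14.1 to 15.6 CPM in MDA-MB-231. The part of these markers in the results was not tested.

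One library of the unedited cells stood apart. Against the other 2 MDA-MB-231 CD44 WT libraries, replicate 1 differed with a chi-square per degree of freedom of 21.4 and 32.6, whereas those 2 differed from each other with 6.14. In replicate 1 the tested genes with an exonic length of up to 2623 nt lay at a median of 0.19 log2 units from the other WT libraries and those over 7067 nt at -0.182. Genes of 4544 to 7067 nt lay at a median of -0.011. YAP1, WWTR1, LATS2 and CRIM1 deviated by -0.705 to -0.778 log2 units in replicate 1 from the mean of the other 2 libraries, and LATS1, with 8643 nt the longest of the 10, by -1.22. The short genes CCN1, CCN2 and ANKRD1, of 1979 to 2455 nt, deviated by between -0.01 and 0.20, and AMOTL2 and AJUBA of 5984 and 5979 nt by 0.13 and -0.17. The deviations of the 10 genes did not follow length alone, since YAP1 of 6296 nt and LATS2 of 5578 nt lie in the range with the median of -0.011. Comparisons of the 10 genes that use this library are therefore also given without it. For the difference between the lines in the change with CD44 loss, some genes have only the range over all libraries left out in turn.

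**Figure D1:**
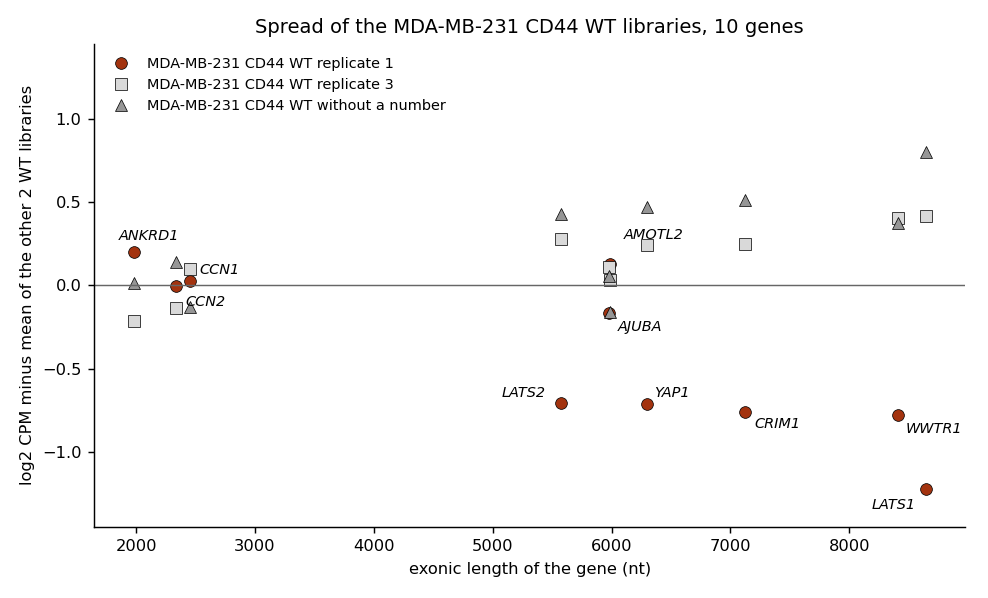
Deviation of each MDA-MB-231 CD44 WT library from the mean of the other 2 (y axis, log2 CPM) for the 10 genes, plotted against exonic length in nucleotides (x axis). In replicate 1 (red, labelled by gene) the 5 genes YAP1, WWTR1, LATS1, LATS2 and CRIM1 lie at -0.70 or below, and the 3 shortest genes lie between -0.01 and 0.20.

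The lines differed far more in these genes than the edit changed them. Between Hs578T CD44 WT and MDA-MB-231 CD44 WT all 10 genes passed edgeR's quasi-likelihood test, with 0.01 as the highest Benjamini-Hochberg adjusted p for a call, against 61.5% of all genes tested. 8 of the 10 were lower in Hs578T (29.4% of all genes) and WWTR1 and LATS1 were higher (32.2% of all genes). For the same 8 genes the libraries of the lines did not overlap in the lower direction (34.2% of all genes), and for the same 2 in the higher (37.7%). The median log2 fold change of Hs578T over MDA-MB-231 was -1.74 over the 10 genes and 0.04 over all genes tested. The same 10 calls were made without MDA-MB-231 CD44 WT replicate 1, with log2 fold changes of -8.90 for ANKRD1, -6.26 for CCN2, -4.36 for CCN1, -3.31 for AMOTL2, -2.01 for AJUBA and -1.725 for LATS2.

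The largest differences were those of the targets ANKRD1, CCN2 and CCN1. ANKRD1, which encodes a nuclear repressor and titin-binding protein of muscle, was measured at 590, 488 and 542 CPM in the MDA-MB-231 CD44 WT libraries and at 1.73, 0.905 and 0.423 CPM in Hs578T CD44 WT. No library of one line came near the other, with a log2 fold change of -8.98 (adjusted p = 4.44e-13, standard error 0.27). In counts this was 18985 against 41 over the 3 libraries, so that the Hs578T level rests on 5 to 25 counts per library. The ratio of the group means was 529 in favour of MDA-MB-231.

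CCN2, also known as CTGF, encodes a matrix-associated secreted protein and is a widely used reporter of YAP activity. It reached 514, 484 and 550.4 CPM in MDA-MB-231 CD44 WT and 6.94, 7.16 and 6.01 CPM in Hs578T CD44 WT. This is a 77.0-fold lower mean in Hs578T (log2 fold change -6.26, standard error 0.16, adjusted p = 9.13e-14). CCN1, or CYR61, its close relative, had 1029, 1065 and 959 CPM in MDA-MB-231 CD44 WT and 63.0, 50.3 and 33.6 CPM in Hs578T CD44 WT. The mean was 20.8-fold lower in Hs578T (log2 fold change -4.37, standard error 0.21, adjusted p = 7.3e-11), and relative to their mean the Hs578T libraries spread more than the MDA-MB-231 libraries. Per kilobase of exon, CCN1, ANKRD1 and CCN2 stood at or above the 99.1th percentile of all genes tested in MDA-MB-231 CD44 WT, and at the 84.4th, 16.4th and 42.0th percentile in Hs578T CD44 WT. CRIM1, a membrane protein that binds bone morphogenetic proteins, differed least among the targets, with 359, 571 and 646 CPM in MDA-MB-231 CD44 WT and 266, 256 and 239 CPM in Hs578T CD44 WT (log2 fold change -1.05, standard error 0.19, adjusted p = 0.000147). Its highest Hs578T library lay below the low MDA-MB-231 replicate 1, and without that library the log2 fold change was -1.26.

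The scaffolds followed the targets in direction. AMOTL2, an angiomotin-family protein that tethers YAP at junctions, had 184, 176 and 162 CPM in MDA-MB-231 CD44 WT and 20.1, 16.04 and 14.5 CPM in Hs578T CD44 WT. It was 10.3-fold lower in Hs578T (log2 fold change -3.36, standard error 0.15, adjusted p = 2.98e-11). AJUBA, a LIM protein that holds back LATS kinases, had 204, 231 and 226 CPM in MDA-MB-231 CD44 WT against 65.0, 52.5 and 52.7 CPM in Hs578T CD44 WT. Its log2 fold change was -1.96 (adjusted p = 1.34e-09, standard error 0.12).

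YAP1, WWTR1 and LATS1 differed least, and not in one direction. YAP1 had 152, 237 and 263 CPM in MDA-MB-231 CD44 WT and 126, 125 and 129 CPM in Hs578T CD44 WT, with -0.78 on the log2 scale (adjusted p = 0.000139, standard error 0.14). WWTR1 went the other way, with 65.5, 113 and 112 CPM in MDA-MB-231 CD44 WT and 168, 160.2 and 162 CPM in Hs578T CD44 WT, with 0.76 on the log2 scale (adjusted p = 0.00167, standard error 0.18). In both genes replicate 1 was the lowest MDA-MB-231 library, and without it the log2 fold changes were -0.98 and 0.54. The ratio of WWTR1 to YAP1 within a library is less touched by that library, because both were low in it. Per kilobase of exon this ratio was 0.966 ± 0.0316 in Hs578T CD44 WT and 0.333 ± 0.0222 in MDA-MB-231 CD44 WT (SD, n = 3), with ranges of 0.94 to 1.0 and 0.318 to 0.358 that do not meet. Transcripts of the 2 effectors were thus near equal per length in Hs578T, and YAP1 transcripts prevailed in MDA-MB-231.

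The kinase genes split likewise. LATS1 had 16.5, 35.4 and 42.4 CPM in MDA-MB-231 CD44 WT and 59.0, 54.6 and 52.8 CPM in Hs578T CD44 WT. Its log2 fold change of 0.82 (adjusted p = 0.00365, standard error 0.22) was 0.52 without MDA-MB-231 CD44 WT replicate 1 (adjusted p = 0.000846) and lost its call without Hs578T CD44 WT replicate 1 (log2 fold change 0.78, adjusted p = 0.0138). LATS2 had 28.9, 45.6 and 48.8 CPM in MDA-MB-231 CD44 WT and 15.95, 14.9 and 11.8 CPM in Hs578T CD44 WT, which do not overlap (log2 fold change -1.53, standard error 0.18, adjusted p = 1.59e-06).

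**Figure D2:**
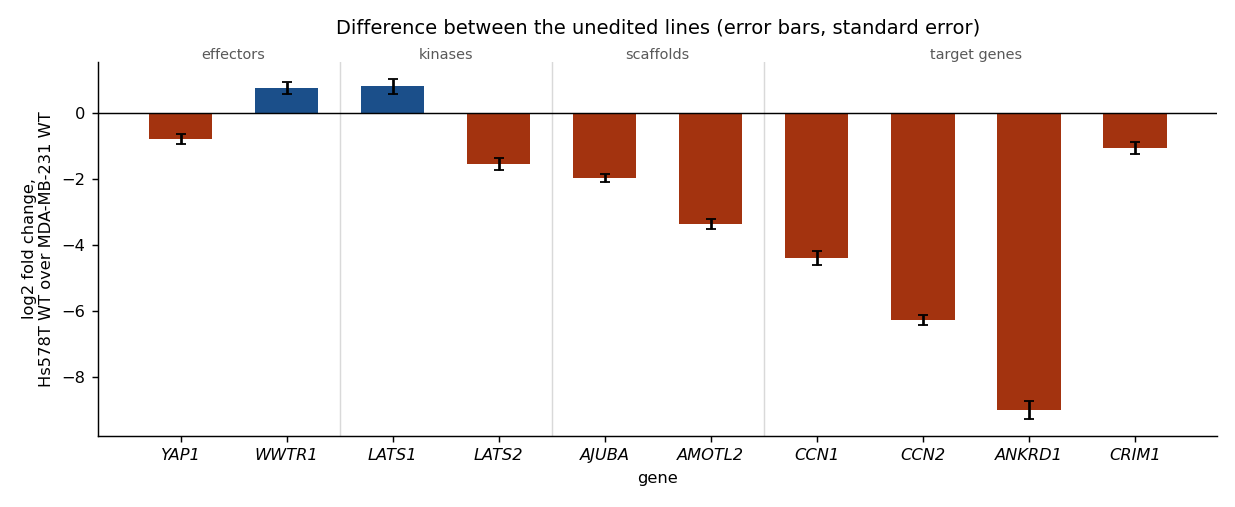
Log2 fold change of Hs578T CD44 WT over MDA-MB-231 CD44 WT (y axis, bars from 0, error bars standard error, 3 libraries per group) for the 10 genes grouped by role (x axis). The 4 targets run from -1.05 for CRIM1 to -8.98 for ANKRD1, and WWTR1 and LATS1 are the bars above 0.

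The other genes of the pathway also leaned towards MDA-MB-231. Of 37 further Hippo regulators, 21 were lower and 6 higher in Hs578T CD44 WT, with a median log2 fold change of -0.60. Among them FAT4, an atypical cadherin, had a log2 fold change of -6.98 (adjusted p = 2.27e-09), AMOT, the founding angiomotin, one of -4.68 (adjusted p = 1.2e-08) and TNIK, a kinase that can act on LATS, one of 3.16 (adjusted p = 6.43e-11). Of 26 tested genes among 27 further published YAP targets, 15 were lower and 4 higher in Hs578T, with a median of -1.16. IGFBP3, which binds insulin-like growth factors, was lower by a log2 fold change of -7.06 (adjusted p = 1.68e-13). CAVIN2, a caveolar coat protein, was counted in no Hs578T library and had between 29.9 and 38.9 CPM in the unedited MDA-MB-231 libraries. Of the TEAD genes, TEAD2 was higher in Hs578T (1.42, adjusted p = 1.22e-07) and TEAD3 (-0.96, adjusted p = 5.61e-06) and TEAD4 (-1.26, adjusted p = 8e-09) were lower, while TEAD1, at 254 to 266 CPM in Hs578T against values between 190.3 and 358 CPM in MDA-MB-231, was not called. Without MDA-MB-231 CD44 WT replicate 1 the log2 fold changes were -7.10 for FAT4, -4.76 for AMOT, 2.99 for TNIK, -7.06 for IGFBP3, 1.42 for TEAD2, -0.93 for TEAD3 and -1.20 for TEAD4, and these 7 genes and CAVIN2 stayed called. These lists were described by counts, and 61.5% of all genes differed between the lines at the same threshold.

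Loss of CD44 in Hs578T was accompanied by a lower level of CCN1, the only gene of the 10 that was called. That is 1 of 10, or 10.0%, where 7.51% of all genes tested were called, 3.86% in the lower and 3.64% in the higher direction. At an adjusted p of 0.05 it would be 3 of 10, where 14.2% of all genes pass. CCN1 had 63.0, 50.3 and 33.6 CPM in the WT libraries and 17.01, 26.4 and 27.4 CPM in the KO libraries. Every KO library lay below every WT library, and the means were 49.0 ± 14.8 and 23.6 ± 5.72 CPM (SD, n = 3). The log2 fold change was -1.06 (adjusted p = 0.0024, standard error 0.20), and 9.18% of all genes tested had a log2 fold change at least as far from 0. The call was lost with some single libraries left out. The adjusted p was 0.0178 without WT replicate 1, 0.011 without WT replicate 2 and 0.014 without KO replicate 1, with log2 fold changes of -0.83, -1.04 and -0.87. Over all genes, 620, 698 and 705 were called in these fits, against 1189 with all libraries.

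The targets ANKRD1 and CRIM1 and the feedback targets AMOTL2 and LATS2 lay lower in Hs578T CD44 KO without passing the threshold. The libraries of CCN2 and of AJUBA, a scaffold also chosen as a direct target, overlapped between the groups, as given below. ANKRD1 had 1.73, 0.905 and 0.423 CPM in WT and 0.160, 0.247 and 0.341 CPM in KO, so that the groups do not overlap. The log2 fold change was -2.06 (adjusted p = 0.0425, standard error 0.65), from 41 counts in the WT libraries together and 10 in the KO libraries. AMOTL2 had 20.1, 16.04 and 14.5 CPM in WT and 12.3, 9.31 and 11 CPM in KO, again without overlap, with a log2 fold change of -0.65 (adjusted p = 0.0129, standard error 0.16). AMOTL2 passed the threshold of 0.01 without WT replicate 3 (adjusted p = 0.00814) or without MDA-MB-231 CD44 KO replicate 1 (adjusted p = 0.00536), and DESeq2 called both ANKRD1 and AMOTL2 (adjusted p = 0.00171 and 0.0023). DESeq2 called 1553 of all genes in Hs578T, where edgeR called 1189. CRIM1 had 266, 256 and 239 CPM in WT and 176, 189 and 167 CPM in KO. The groups were well apart, yet the log2 fold change of -0.52 (standard error 0.19) had an adjusted p of 0.0859 with all 12 libraries and of 0.000591 when Hs578T was fitted alone. The wide spread of CRIM1 in MDA-MB-231, from 343 to 646 CPM, enters the first of these fits and not the second. LATS2, the other feedback target, had 15.95, 14.9 and 11.8 CPM in WT and 9.47, 8.82 and 10.2 CPM in KO. These do not overlap, and the log2 fold change of -0.59 (standard error 0.19) had an adjusted p of 0.0516, or of 0.00689 without MDA-MB-231 CD44 WT replicate 1. The 40 tested genes nearest to LATS2 had a median of -0.19.

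CCN2 was alike in both groups of Hs578T in level. It had 6.94, 7.16 and 6.01 CPM in WT and 5.29, 7.21 and 7.68 CPM in KO, with a log2 fold change of 0.01 (adjusted p = 0.998, standard error 0.17). The KO libraries lay on both sides of the WT libraries. At 66 to 117 counts per library, the standard error allows a modest change in either direction. CCN2 was the promoter window with 3 TEAD matches, as shown above.

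Neither effector was called in Hs578T. YAP1 had 126, 125 and 129 CPM in WT and 117, 122 and 121 CPM in KO, with every KO library below every WT library but a log2 fold change of only -0.08 (adjusted p = 0.781, standard error 0.14). WWTR1 had 168, 160.2 and 162 CPM in WT and 182, 217 and 183 CPM in KO, all higher, with a log2 fold change of 0.25 (adjusted p = 0.413, standard error 0.18). The ratio of WWTR1 to YAP1 per kilobase was 1.21 ± 0.11 in KO (SD, n = 3, range 1.14 to 1.34), above the 0.94 to 1.0 of the WT libraries. LATS1 had 59.0, 54.6 and 52.8 CPM in WT and 60.7, 71.3 and 56.0 CPM in KO, which overlap (log2 fold change 0.18, adjusted p = 0.655). AJUBA had 65.0, 52.5 and 52.7 CPM in WT and 55.5, 51.1 and 52.5 CPM in KO, which overlap as well (log2 fold change -0.10, adjusted p = 0.662).

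Over the 10 genes, the Hs578T KO libraries lay below all WT libraries for 6 genes (60.0%) and above them for WWTR1 alone (10.0%). Of all genes tested, 18.6% lay below in this way and 18.7% above. The median log2 fold change of the 10 genes was -0.31, against -0.002 over all genes tested. The WT libraries were not alike in these genes, since replicate 1 was the highest of its group for 8 of the 10 and replicate 3 the lowest for 7.

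**Figure D3:**
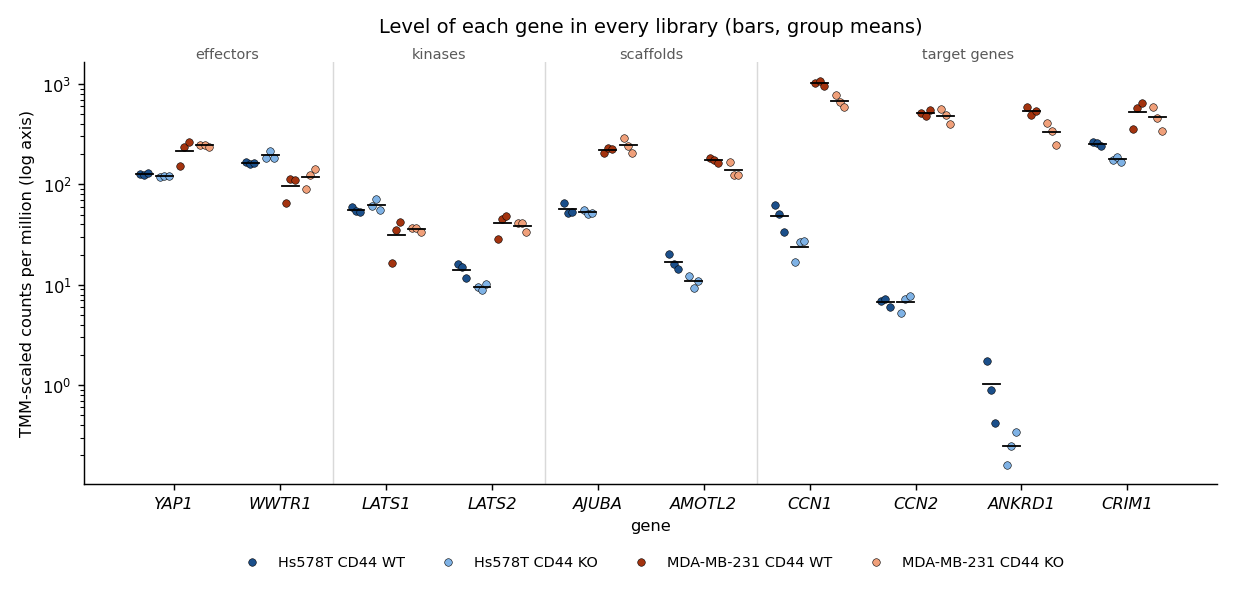
TMM-scaled CPM of each of the 10 genes (x axis, grouped by role) in each of the 12 libraries (y axis, log scale), with short bars for the means of the 4 groups. The 3 targets CCN1, CCN2 and ANKRD1 are separated by line much more than by CD44 status, with ANKRD1 at most at 1.73 CPM in every Hs578T library and at least at 246 CPM in every MDA-MB-231 library.

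In MDA-MB-231 none of the 10 genes was called with loss of CD44 at an adjusted p of at most 0.01 in edgeR's quasi-likelihood test, where 4.62% of all genes tested were called, 2.65% in the lower and 1.97% in the higher direction. At an adjusted p of 0.05 it would be 1 of 10, where 9.59% of all genes pass. DESeq2 called ANKRD1 (adjusted p = 0.00256), and it called 1138 of all genes where edgeR called 731. ANKRD1 had 590, 488 and 542 CPM in WT and 405, 337 and 246 CPM in KO. Every KO library lay below every WT library, and the means were 540.0 ± 51.2 and 329.6 ± 79.8 CPM (SD, n = 3). The log2 fold change was -0.71 (adjusted p = 0.0126, standard error 0.17), just outside the threshold. It fell inside with some libraries left out, at 0.00542 without KO replicate 1 and at 0.00765 or 0.007 without replicate 1 or 3 of Hs578T CD44 WT, and it was further outside without others, at 0.0256 without WT replicate 1, 0.0468 without KO replicate 2 and 0.056 without KO replicate 3, where the log2 fold change was -0.53.

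CCN1 was lower in MDA-MB-231 CD44 KO as well, without passing the threshold. It had 1029, 1065 and 959 CPM in WT and 779, 662 and 586 CPM in KO, which do not overlap, with a log2 fold change of -0.59 (adjusted p = 0.0553, standard error 0.18). CCN1 and ANKRD1 were the only 2 of the 10 genes whose KO libraries all lay below the WT libraries, which held for 13.7% of all genes tested, and for none did they all lie above, which held for 11.8%. The counts behind them, at least 2495 per library, leave little counting error. AMOTL2 had 184, 176 and 162 CPM in WT and 168, 125 and 124 CPM in KO, with 1 KO library inside the WT range and a log2 fold change of -0.33 (adjusted p = 0.147, standard error 0.13). CCN2 had 514, 484 and 550.4 CPM in WT and 559.8, 494 and 397 CPM in KO, so that KO libraries lay both above and below WT (log2 fold change -0.09, standard error 0.12, adjusted p = 0.701). At this depth, with at least 4022 counts per library, the spread between libraries and not the counts limits what could be seen for CCN2.

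For YAP1, LATS1 and WWTR1 the MDA-MB-231 comparison moved with the library that stood apart. YAP1 had 152, 237 and 263 CPM in WT and 244, 249 and 238 CPM in KO, and its log2 fold change of 0.17 (adjusted p = 0.51) became -0.03 without WT replicate 1 (adjusted p = 0.878). LATS1 had 16.5, 35.4 and 42.4 CPM in WT and 36.9, 36.9 and 33.7 CPM in KO, and its log2 fold change of 0.19 became -0.12. WWTR1 had 65.5, 113 and 112 CPM in WT and 89.5, 123 and 143 CPM in KO, with a log2 fold change of 0.29 (adjusted p = 0.367) that became 0.08. The ratio of WWTR1 to YAP1 per kilobase was 0.364 ± 0.0879 in KO (SD, n = 3, range 0.274 to 0.45), around the 0.318 to 0.358 of the WT libraries. YAP1, LATS1 and WWTR1 were not called with or without that library, and the KO libraries of YAP1 and LATS1 lay within the range of the WT libraries.

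LATS2 and CRIM1 moved with single libraries as well. LATS2 had 28.9, 45.6 and 48.8 CPM in WT and 41.1, 41.0 and 33.3 CPM in KO, a log2 fold change of -0.09 (adjusted p = 0.807) that became -0.29 without WT replicate 1 (adjusted p = 0.202). CRIM1 had 359, 571 and 646 CPM in WT and 591, 463 and 343 CPM in KO, a log2 fold change of -0.17 (adjusted p = 0.634) that became -0.39 (adjusted p = 0.157). Over all libraries left out in turn, LATS2 ranged from -0.29 to 0.05 and CRIM1 from -0.39 to 0.02, with the values above 0 found without KO replicate 3 or without the WT library that has no number. AJUBA had 204, 231 and 226 CPM in WT and 289.9, 241 and 206 CPM in KO, with a log2 fold change of 0.16 (adjusted p = 0.459, standard error 0.12). Without WT replicate 1 the log2 fold changes of the genes it touched less were -0.64 for ANKRD1, -0.585 for CCN1, -0.285 for AMOTL2, -0.10 for CCN2 and 0.10 for AJUBA, with none called. The MDA-MB-231 KO libraries also differed among themselves, since replicate 3, the shallowest of the 12, was the lowest of its group for 9 of the 10 genes and replicate 1 the highest for 7.

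**Figure D4:**
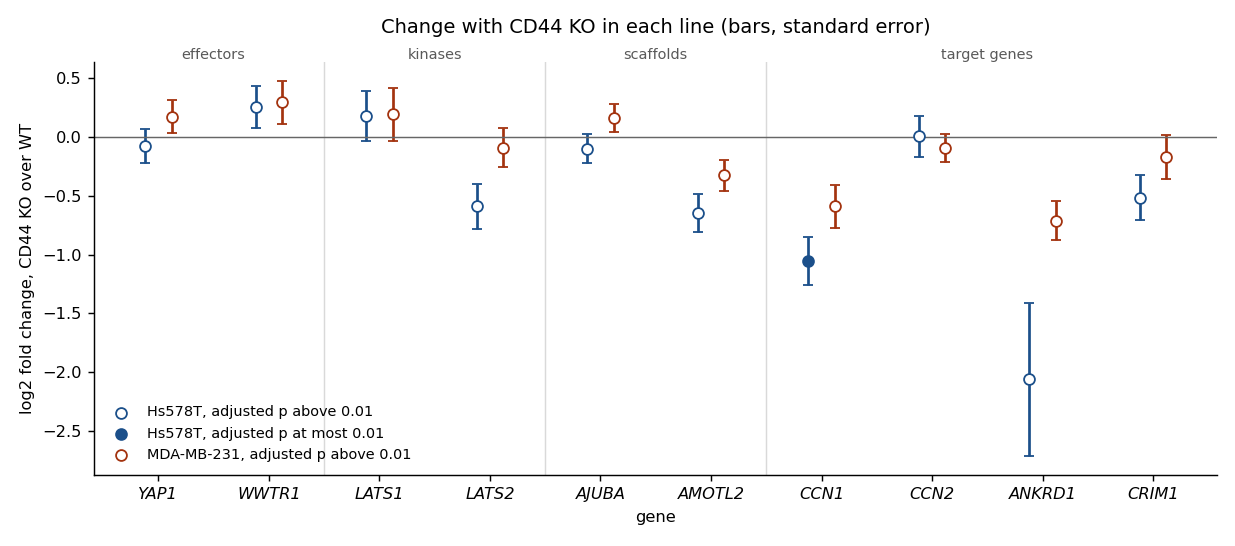
Log2 fold change of CD44 KO over WT (y axis, points with standard error, 3 libraries per group) for the 10 genes (x axis, grouped by role) in Hs578T (blue) and MDA-MB-231 (red), with filled points at an adjusted p of at most 0.01. CCN1 in Hs578T at -1.06 is the only filled point, and CCN1, ANKRD1 and AMOTL2 lie below 0 in both lines while CCN2 lies at 0.01 and -0.09.

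The change with loss of CD44 was not shown to differ between the lines for any of the 10 genes, where 4.12% of all genes tested passed the test of this difference in edgeR. The difference, Hs578T minus MDA-MB-231, was -0.46 for CCN1 (adjusted p = 0.32, standard error 0.27), -1.35 for ANKRD1 (adjusted p = 0.234, standard error 0.69), -0.50 for LATS2 (adjusted p = 0.247, standard error 0.26) and -0.32 for AMOTL2 (adjusted p = 0.376, standard error 0.21). None of the 10 had an unadjusted p under 0.05 for this difference, the lowest being 0.0631 for ANKRD1, and DESeq2 called none. The call of CCN1 in Hs578T alone therefore does not show that the lines responded differently. Without MDA-MB-231 CD44 WT replicate 1 the difference was -0.47 for CCN1, -1.42 for ANKRD1, -0.37 for AMOTL2 and -0.30 for LATS2, and for CRIM1 it went from -0.34 to -0.13. Over all libraries left out in turn, the difference ranged from -0.407 to -0.043 for YAP1 and from -0.377 to -0.122 for AJUBA. It took both signs for WWTR1 (-0.207 to 0.178), LATS1 (-0.283 to 0.296) and CCN2 (-0.033 to 0.241).

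The genes whose levels ran most alike with CCN1 were looked for over the 12 libraries after the mean of each line had been subtracted, among genes that are not in the set of 10 and had a mean of at least 5 CPM. CCN1 was closest to CLEC11A, a secreted lectin (Pearson r = 0.971), TPM1, an actin-binding tropomyosin (r = 0.953), and FHL2, a LIM-domain coactivator (r = 0.951). ANKRD1 was closest to TPM1 (r = 0.966), SLC25A23, a mitochondrial carrier (r = 0.964), and CASZ1, a zinc finger factor (r = 0.957), and CCN1 and ANKRD1 had r = 0.967 with each other. CCN2 was closest to KNOP1 (r = 0.833), DPM1 (r = 0.802) and WTIP (r = 0.8), and had r = 0.5 with CCN1 and 0.477 with ANKRD1. AMOTL2 had r = 0.818 with CCN1 and 0.871 with ANKRD1, whereas YAP1 had -0.07 and -0.09. These libraries include both KO and WT cells, so that genes that differ between them share this difference. In Hs578T, ANKRD1 had 2 to 25 counts per library, so that its values there, and its correlations, depend in part on the prior count.

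TPM1 and FHL2 belong to the targets of SRF, a factor that responds to actin dynamics. Of 19 such genes, 17 were tested. With loss of CD44 in Hs578T, 3 were called lower and none higher, which is 17.6% of the list where 7.51% of all genes were called, and the list had a median of -0.075 on the log2 scale. These were MYL9, a myosin light chain, with 39.9, 32.8 and 27.5 CPM in WT and 18.3, 20.8 and 20.04 CPM in KO (-0.76, adjusted p = 0.0022), TPM1 (-0.61, adjusted p = 0.00425) and FHL2 (-0.45, adjusted p = 0.0089). MYL9 lost its call in 3 of 25 alternatives, TPM1 in 6 and FHL2 in 10. In MDA-MB-231 CD44 KO, 1 was called lower (5.88% of the list, against 4.62% of all genes), the actin gene ACTG1, with 4286, 3505 and 3464 CPM in WT and 2274, 2282 and 2341 CPM in KO (-0.71, adjusted p = 0.000197). ACTG1 had a log2 fold change of 0.02 in Hs578T (adjusted p = 0.932), and the difference between the lines passed the test (0.73, adjusted p = 0.00256). Without MDA-MB-231 CD44 WT replicate 1 these values of ACTG1 were -0.60 in MDA-MB-231 and 0.62 for the difference, both called.

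Upstream regulators of the pathway changed singly. Of the 37 regulators, 3 were called lower and 1 higher with loss of CD44 in Hs578T (10.8% of the list, against 7.51% of all genes), and the median was -0.07 on the log2 scale. RASSF2, a binding partner of the MST kinases, had 2.64, 4.85 and 5.33 CPM in WT and 1.04, 1.73 and 1.19 CPM in KO (-1.64, adjusted p = 0.000672), and in MDA-MB-231 it rose from 9.86, 10.5 and 10.9 CPM to 20.7, 22.5 and 22.4 CPM (1.07, adjusted p = 0.00187). WWC1, or KIBRA, an activator of LATS, fell in Hs578T (-0.75, adjusted p = 0.000612), as did MOB1A, a LATS cofactor (-0.42, adjusted p = 0.00979), and TAOK3, a kinase that activates MST, rose (0.46, adjusted p = 0.0071). MOB1A lost its call in 14 of 25 alternatives and TAOK3 in 8. In MDA-MB-231 CD44 KO, 1 of the 37 was higher, RASSF2, and 1 lower, which is 5.41% against 4.62% of all genes, with a median of 0.13. The lower gene was AMOT, with 6.17, 6.98 and 7.66 CPM in WT and 0.932, 0.424 and 0.494 CPM in KO (-3.52, adjusted p = 3.7e-06), a relative of AMOTL2. Both stayed called without WT replicate 1, AMOT at -3.60 and RASSF2 at 1.03, and RASSF2 lost its call in 3 of 25 alternatives. None of the 6 tested TEAD and VGLL genes was called in edgeR in either line, and those nearest to it had an adjusted p of 0.132 in Hs578T (TEAD4) and 0.212 in MDA-MB-231 (TEAD3).

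Other published YAP targets were called in both directions. Of the 26 tested, 4 were called higher and 1 lower with loss of CD44 in Hs578T, 19.2% of the list where 7.51% of all genes were called, and the median was -0.03 on the log2 scale. IGFBP3 rose from 0.277, 0.411 and 0.423 CPM to 2.65, 2.1 and 2.05 CPM (2.60, adjusted p = 1.73e-05), RBMS3, an RNA-binding protein, from 0.832, 1.07 and 2.03 CPM to 9.79, 18.3 and 12.1 CPM (3.38, adjusted p = 1.95e-06), and SLIT2, a guidance ligand, from at most 0.0846 CPM to between 0.597 and 1.97 CPM (adjusted p = 0.00136). GADD45A, a growth arrest gene, rose by 0.55 (adjusted p = 0.00776), and TNS3, a tensin of cell adhesions, fell from 136, 121 and 106 CPM to 67.6, 68.5 and 73.8 CPM (-0.79, adjusted p = 0.000217). In MDA-MB-231 CD44 KO the only called gene of the list was FSTL1, a secreted glycoprotein, which fell (-0.76, adjusted p = 0.000442, and -0.87 without WT replicate 1). Within the CCN family, CCN3 rose in Hs578T CD44 KO from 4.65, 6.58 and 8.21 CPM to 20.3, 25.03 and 21.9 CPM (1.80, adjusted p = 7.16e-06) while CCN1 fell. The log2 fold change of CCN3 exceeded that in MDA-MB-231 by 1.37 (adjusted p = 0.00222), and CCN4 was counted in Hs578T alone and not called there with loss of CD44 (adjusted p = 0.7).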

How the data were processed

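RNA was sequenced from 12 libraries. The authors aligned paired reads to GRCh38 with HISAT2 2.1.0 and counted them with featureCounts 1.6.2 at a mapping quality of at least 10 on GENCODE 28, and deposited whole-number counts per gene with no normalization. Genes over 1 CPM in at least 2 libraries and of at least 300 nt were tested in edgeR 4.0.16 (R 4.3.3) with TMM factors, 4 group means and the legacy quasi-likelihood fit. The study's methods word the length limit the other way. Calls needed an adjusted p of 0.01 or less, and a fold change of any size could pass. Deviations used log2 CPM with a prior count of 2. The count depth limits precision for ANKRD1 in Hs578T. The name of 1 MDA-MB-231 CD44 WT library did not fix its replicate number, and it was used by group. Of each gene list, the called genes with the largest changes are named, up to 4 per comparison. GADD45A and TEAD1 were added after their values were seen. The genes and lists were chosen with earlier results of these data known. Alternatives included DESeq2 1.42.0, other scaling, filters, thresholds and blocks, and each library left out. The fit was tested on simulated data.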

Additional observations from a re-analysis of the deposited data

Results flagged for a closer look

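For none of the 10 Hippo pathway genes was the change with loss of CD44 shown to differ between the lines. In the lists examined beside them, 10 genes passed the test of this difference in edgeR, where 4.12% of all genes tested passed. By list they were 1 of 37 regulators (2.7%), 4 of 26 further YAP targets (15.4%), 1 of 17 SRF targets (5.88%) and 1 of 2 tested CCN genes. The rest were marker genes, and no TEAD, VGLL or immediate early gene passed. The differences are log2 fold changes of KO over WT in Hs578T minus those in MDA-MB-231. Among the regulators and targets, RASSF2 had -2.71 (adjusted p = 8.34e-05), with opposite directions in the lines. SLIT2 had 5.04 (adjusted p = 0.0044), RBMS3 3.16 (adjusted p = 7.74e-05), IGFBP3 2.86 (adjusted p = 2.73e-05) and CCN3 1.37 (adjusted p = 0.00222), and all 4 rose in Hs578T alone at the threshold. FSTL1 with 0.71 (adjusted p = 0.00985) and ACTG1 with 0.73 (adjusted p = 0.00256) fell in MDA-MB-231. Of the marker genes, CLDN4, a claudin of epithelial tight junctions, had -1.3 (adjusted p = 0.00781), KDR 3.04 (adjusted p = 0.00882) and PTPRC 5.66 (adjusted p = 0.00116). SLIT2, IGFBP3, PTPRC and KDR each had a group with at most 0.576 CPM in every library, so that the size of their fitted changes depends on the prior count. All 10 were called without MDA-MB-231 CD44 WT replicate 1. Over 24 alternatives the call was lost in 15 for FSTL1, 12 for KDR, 10 for CLDN4, 3 for SLIT2, 2 for ACTG1 and 1 for PTPRC.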

How the results depend on the processing

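For the 10 genes, 25 alternatives were run and no call changed sign. In Hs578T CD44 KO against WT, 1 gene was called in the reported fit, 3 by DESeq2, 5 without a filter on low counts (CCN1, ANKRD1, AMOTL2, CRIM1 and LATS2), 2 with each line fitted alone, 3 with a threshold of 0.05 and 0 to 2 with a library left out. Over all genes these settings called 1189, 1553, 1984, 1525 and 2253 in that order, and 605 to 1685 with a library left out. In MDA-MB-231 0 were called in the reported fit, 1 by DESeq2 and 1 with a threshold of 0.05 (ANKRD1), 2 without a filter on low counts (ANKRD1 and CCN1) and 0 to 1 with a library left out. There these settings called 731, 1138, 1518 and 1370 of all genes in that order, and 355 to 763 with a library left out. The cause of these changes was not tested. Over all genes, 605 to 2253 were called in Hs578T over the alternatives (1189 as reported), 315 to 1518 in MDA-MB-231 (731 as reported), 396 to 1670 for the difference between the lines (653 as reported) and, with a log2 fold change of at least 1, 5817 between the unedited lines (9742 as reported). The test of the difference between the lines called 0 of the 10 under every alternative that could give it, and between the unedited lines 7 to 10 were called. Scaling by library size only turned CCN2 in Hs578T from 0.01 to the other side of 0 and no other direction among the 10, and moved the median of all genes between the unedited lines from 0.04 to 0.16. Deviations of libraries with the same replicate number were weakly correlated at most (correlations of -0.12 to 0.16, over 0.1 in 1 of 15 pairs, and -0.00115 to 0.164 for sets of the running label number, over 0.1 in 6 of 18, where pairs of other sets had -0.171 to 0.123), and since not every pair was over 0.1 the numbers were not taken as a pairing. A replicate block fitted without the library that has no number called 2 genes in Hs578T (AMOTL2 and CCN1) and 1 in MDA-MB-231 (ANKRD1), where leaving that library out with no block called 1 and 0. Of all genes, that block called 1076 in Hs578T and 436 in MDA-MB-231, and leaving the library out called 1245 and 663. A replicate block by label number, with all libraries, called 1 in Hs578T (CCN1) and 1 in MDA-MB-231 (ANKRD1). Of all genes, it called 1305 in Hs578T and 824 in MDA-MB-231. Low counts limit ANKRD1 in Hs578T to values with a standard error of 0.65.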

Other observations

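The neighbourhood of each of the 10 genes was described by the 20 nearest tested genes on each side. Around CRIM1, chr2:29097705-38751494, the 40 neighbours had a median of -0.31 on the log2 scale with loss of CD44 in Hs578T, with 33 of 40 below 0 (7944 of 15836 over all genes), where CRIM1 itself had -0.52. Of these neighbours, 9 of 40 were called, where 7.51% of all genes were called. In MDA-MB-231 the same 40 genes had a median of 0.06. Around CCN1, chr1:78649796-89426243, the neighbours had a median of 0.22 with loss of CD44 in Hs578T, opposite to the -1.06 of CCN1, with 11 of 40 called where 7.51% of all genes were called. Around YAP1, on the chromosome of CD44, it was 0.17 (Hs578T) and 0.03 (MDA-MB-231). In Hs578T, 6 of the 40 neighbours of YAP1 were below 0, where YAP1 itself had -0.08. In MDA-MB-231 the median furthest from 0 was that around AJUBA, 0.215 with 5 of 40 below 0, where AJUBA itself had 0.16. The neighbours of LATS2 had a median of -0.19 in Hs578T, and those of the other 6 genes lay between 0.002 and 0.10 there.

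Among the immediate early genes, 12 of 14 were tested. FOSL1, an AP-1 subunit, was the only one called with loss of CD44, with 11.9, 12.6 and 13.7 CPM in Hs578T CD44 WT and 19.5, 20.04 and 16.2 CPM in KO (log2 fold change 0.55, adjusted p = 0.00746), a call lost in 9 of 25 alternatives. That is 8.33% of the tested list in Hs578T, where 7.51% of all genes were called. Between the unedited lines FOSL1 was lower in Hs578T, with a log2 fold change of -4.82 (adjusted p = 1.07e-13). Of the 12 tested genes, 5 were called lower and 2 higher in Hs578T there, which is 58.3% where 61.5% of all genes were called.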
